A study of Mus musculus with 24 samples.

Results

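The response of WT neurons to tunicamycin (TM) was measured in 6 of the 24 RNA sequencing libraries of the series, 3 of TM-treated WT neurons and 3 of control WT neurons. The libraries were chosen by their labels, and all 26310 genes of their shared count table were considered. The neurons were cultured from Perk loxP/loxP mice, in which both copies of Eif2ak3, the gene of the stress kinase PERK, carry loxP sites. Every WT culture, treated or not, had received a lentivirus encoding ΔCre, an inactive form of Cre recombinase, so that the WT neurons are transduced cells with an uncut floxed gene. Cells received 5 µg/mL TM on day in vitro 14 for 24 hours (20 to 24 hours by the design text), and control cultures received DMSO alone. Perk KO neurons, made from the same mice with active Cre, and WT astrocytes, each with 3 TM-treated and 3 control libraries, served to test where the response of WT neurons differed. Brain region, age of the mice and the promoter that drives Cre are not given in the sources used here. By their titles the libraries are biological replicates, but no label ties them to separate cultures or animals, so p-values reflect only the spread among the 3 libraries of a group, and that spread may be technical.

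Tunicamycin blocks DPAGT1, the enzyme that starts the lipid-linked sugar tree later attached to asparagines of new proteins in the endoplasmic reticulum (ER). Unglycosylated proteins misfold, and the ER sensors IRE1, ATF6 and PERK then start the unfolded protein response. ATF6 and the IRE1 product XBP1 activate genes for ER folding, degradation and export, while PERK phosphorylates eIF2, slows translation and favours the transcription factors ATF4 and CHOP. Neurons load this pathway with receptors, channels, adhesion molecules and neuropeptides, nearly all of which pass through the ER.

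The TM libraries held 18175205, 18460397 and 18658788 counts and the control libraries 20528126, 20299995 and 16029751 counts. Of 15546 genes that averaged 10 counts or more, 4203 rose and 3852 fell by edgeR's quasi-likelihood test at a Benjamini-Hochberg adjusted p under 0.05, which is 27.0% and 24.8% of the genes tested. Of these, 1500 rose and 1514 fell by more than 2-fold, and 367 rose and 309 fell by more than 4-fold. The median log2 fold change over all genes tested was 0.04, and the TM and control libraries did not overlap for 9348 genes (60.1%). Every count of a gene group below is to be read against these shares. Changes are log2 fold changes of TM over control ± standard error (3 libraries against 3), adjusted p-values are from that edgeR test, and levels are CPM, counts scaled to the size of the library with TMM factors, unless FPKM, a level per transcript length, is named.

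The targeted gene was read in the 18 libraries used here as CPM of the library's unscaled total. Eif2ak3 stood at 137, 132 and 148 in TM-treated WT neurons and at 35.7, 35.8 and 31.3 in control WT neurons. The values were 9.33, 12.4 and 16.7 in TM-treated and 5.55, 5.09 and 5.05 in control Perk KO neurons, and 97.7, 79.3 and 69.7 in TM-treated and 26.3, 28.1 and 25.7 in control WT astrocytes. All 6 libraries of Perk KO neurons lay below all 12 WT libraries read, and the counts cannot resolve the exons that Cre removes.

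The cultures were checked against markers of the cells they could hold. Summed over 15 neuron markers the level was 3642 to 3818 CPM in TM-treated and 6769 to 7431 CPM in control neurons, and 11 of the 15 fell. Over 16 astrocyte markers it was 1197 to 1284 CPM with TM and 4090 to 4421 CPM in controls, with 14 of 15 tested lower and Gjb6, the connexin of mature astrocytes, at 0 to 3 counts in TM and 2 to 6 counts in control libraries. Oligodendrocyte lineage markers summed to 120 to 169 CPM with TM and 478 to 543 CPM in controls (11 of 12 tested lower, 1 higher), and fibroblast and mural markers to 156 to 188 CPM with TM and 484 to 492 CPM in controls (6 of 11 lower, 3 without control replicate 1 or TM replicate 1). Microglia markers summed to 57.7 to 65.5 CPM with TM and 63.5 to 95.8 CPM in controls, with 5 of 10 tested lower. P2ry12, Tmem119, Itgam and Trem2, which mark resting or phagocytic microglia, had at most 18 counts in any of the 6 libraries. Endothelial markers summed to at most 37.2 CPM in any library, with 2 of 4 tested lower (1 without control replicate 1, TM replicate 2 or TM replicate 3), and Cldn5 was not analysed here. Ependymal and choroid plexus markers summed to 72.1 to 103 CPM with TM and 80.5 to 156 CPM in controls, ranges that overlap. Of 8 tested markers of this class 3 fell, and 1 did without control replicate 1 or 2 or TM replicate 2 or 3. Neuronal and glial markers thus moved with the treatment, and their part in the falls described below was not tested. In these bulk libraries, fewer cells of a type and less RNA per cell cannot be told apart.

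Promoter elements through which the unfolded protein response is known to act were searched in RefSeq promoter windows of GRCm38.p6, which run from 250 bases before to 50 bases after a gene's start, and 11221 tested genes had such a window. The ER stress response element (ERSE) consists of CCAAT and CCACG with 9 bases between them, and binds NF-Y with ATF6 or XBP1. The stretches of 6 genes that hold it are shown because their genes include some of the largest rises of the response. Capitals mark the element, which reads as CGTGG and ATTGG where it lies on the other strand, and every stretch is given 5′ to 3′ on the gene's own strand.
Derl3, chr10:75893212-75893290 (+): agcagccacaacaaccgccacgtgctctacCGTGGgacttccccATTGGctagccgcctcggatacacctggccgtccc
Creld2, chr15:88819490-88819568 (+): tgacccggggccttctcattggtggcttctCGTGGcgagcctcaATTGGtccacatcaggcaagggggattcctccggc
Hspa5, chr2:34771995-34772073 (+): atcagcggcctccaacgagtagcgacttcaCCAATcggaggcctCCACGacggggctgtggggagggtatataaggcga
Hsp90b1, chr10:86705503-86705686 (-): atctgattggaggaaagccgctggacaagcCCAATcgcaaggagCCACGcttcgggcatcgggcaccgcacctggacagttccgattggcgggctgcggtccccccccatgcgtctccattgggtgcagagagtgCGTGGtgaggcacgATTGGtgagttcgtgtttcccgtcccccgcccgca
Dnajc3, chr14:118937797-118937875 (+): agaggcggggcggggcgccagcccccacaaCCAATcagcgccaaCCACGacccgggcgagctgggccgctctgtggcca
Calr, chr8:84847045-84847123 (-): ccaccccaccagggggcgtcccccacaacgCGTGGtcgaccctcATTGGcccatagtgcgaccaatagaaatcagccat

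The element ended 46 bases before the start of Hspa5, 86 bases before that of Dnajc3, 107 before Creld2, 137 before Derl3 and 143 before Calr, and Hsp90b1 held it at 193 and at 88 bases. It was found in 39 of 32851 windows (0.119%) and in 20 of the 11221 tested genes (0.178%). Of these 20 genes 12 rose and 2 fell, with a median log2 change of 1.73, against 28.1% higher and 25.1% lower over all genes with a window. The 12 were the 6 printed and Alg12, Canx, Pdia6, Syvn1, Xlr3b and Zfp57, all named here because they hold the element. The 2 that fell were Spats2l (-0.39, edgeR adjusted p = 0.017) and Tdrd9 (-3.54, 0.00161), which averaged 738 and 15.7 counts. A match is a description of these letters, not a measured binding site.

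Herpud1 carries a related element, ERSE-II (ATTGG, 1 base, CCACG), together with a CARE, the C/EBP-ATF response element through which ATF4 and CHOP act, here TGATG, 1 base and AA. The stretches of Herpud1, Atf3 and Chac1 are shown because Herpud1 holds both elements and the other two a CARE alone. In them the CARE reads TT, 1 base and CATCA, since it lies on the other strand, and capitals mark both elements.
Herpud1, chr8:94386287-94386417 (+): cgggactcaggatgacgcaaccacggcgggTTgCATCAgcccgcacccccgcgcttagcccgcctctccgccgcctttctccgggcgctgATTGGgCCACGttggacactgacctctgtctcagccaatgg
Atf3, chr1:191183406-191183473 (-): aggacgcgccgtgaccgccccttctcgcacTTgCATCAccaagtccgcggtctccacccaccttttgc
Chac1, chr2:119351019-119351086 (+): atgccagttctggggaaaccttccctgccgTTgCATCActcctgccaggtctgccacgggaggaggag

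ERSE-II was present in 9 tested genes, of which 8 rose (median 1.64), among them the chaperone cofactor Dnajb11 (2.37), the calcium-binding Nucb1 (2.16) and Krtcap2 (1.76), a subunit of the oligosaccharyltransferase. The CARE was present in 308 tested genes (2.74%), of which 120 rose and 71 fell (39% and 23.1%), and in 24 of the 263 genes with a window that rose over 4-fold (9.13%). The core TGACGTGG of the unfolded protein response element, bound by XBP1 and ATF6, was present in 121 genes, of which 62 rose and 19 fell (51.2% and 15.7%). The cyclic AMP response element TGACGTCA gave shares nearer to those of all windows, with 32% of 400 genes higher and 25.5% lower. A form of the sterol regulatory element, TCAC, 1 base and CCAC, gave 28.1% of 153 genes higher and 30.1% lower. All motifs were searched on both strands, and CARE and TGACGTGG matches may overlap other matches.

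Several of the genes printed above were shown for their large rises, so the values below describe these genes and not the elements. Derl3, a membrane protein that passes misfolded proteins to the degradation channel of the ER, stood at 171, 176 and 178 CPM in TM-treated neurons, against 0.854, 0.984 and 1.25 CPM in controls. Creld2, an ER oxidoreductase, stood at 694, 638 and 666 CPM with TM and at 16.6, 12.7 and 13.5 CPM in controls. In both genes every TM library lay far above every control library, and the log2 changes were 7.42 ± 0.13 and 5.54 ± 0.13 (edgeR adjusted p = 1.85e-08 and 4.59e-08). Herpud1, which gathers the ER degradation machinery, had 948, 909 and 990 CPM with TM and 47, 52.8 and 53.4 CPM in controls (4.22 ± 0.09, 4.59e-08). Its groups did not overlap either.

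Atf3 and Chac1, printed above for a CARE, also rose, but they do not stand for all genes with that element. Over the 308 tested genes with a CARE the median log2 change was 0.17. Atf3, a stress-induced transcription factor, stood at 175, 167 and 168 CPM with TM and at 7.84, 5.66 and 6.21 CPM in controls (4.69 ± 0.13, edgeR adjusted p = 1.14e-07). Chac1, which degrades glutathione, stood at 281, 263 and 278 CPM with TM and at 25.3, 28.8 and 26.7 CPM in controls (3.35 ± 0.09, 8.48e-08). In each the TM libraries lay close together and far above the controls. Of 16 targets of PERK, ATF4 and CHOP with a window, 7 held a CARE.

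Some ER chaperone genes took a larger share of all counts with TM. Hspa5, the gene of the HSP70 chaperone BiP, took 1.1%, 1.05% and 1.03% of all counts in TM libraries and 0.0524%, 0.0521% and 0.0528% in control libraries. By the authors' FPKM, Hspa5 ranked 4th among protein-coding genes with TM and 352nd in controls. The disulfide isomerase Pdia4 ranked 13th with TM and 1505th in controls, the lectin chaperone Calr 14th and 181st, and the HSP90 chaperone Hsp90b1 16th and 968th. Hmox1, a heme-degrading enzyme of the oxidative stress response, ranked 17th with TM and 514th in controls. Among the genes that ranked far higher in controls, the tubulin genes Tuba1a and Tubb2a stood at rank 77 and 214 with TM and at rank 10 and 15 in controls. Apoe, a lipid carrier, ranked 23rd with TM and 12th in controls. The 10 genes that gained most counts together held 4.46%, 4.3% and 3.74% of the TM libraries and 1.25%, 1.03% and 1.1% of the control libraries. Among these 10 were both mitochondrial ribosomal RNAs, whose share was 1.18%, 1.11% and 0.623% with TM and 0.572%, 0.364% and 0.493% in controls. For mt-Rnr2 the groups overlapped (0.294% in TM replicate 3 and 0.299% in control replicate 1), and its call was lost without TM replicate 1 or 2 or control replicate 2 (adjusted p 0.0628 to 0.0845).

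**Figure D1:**
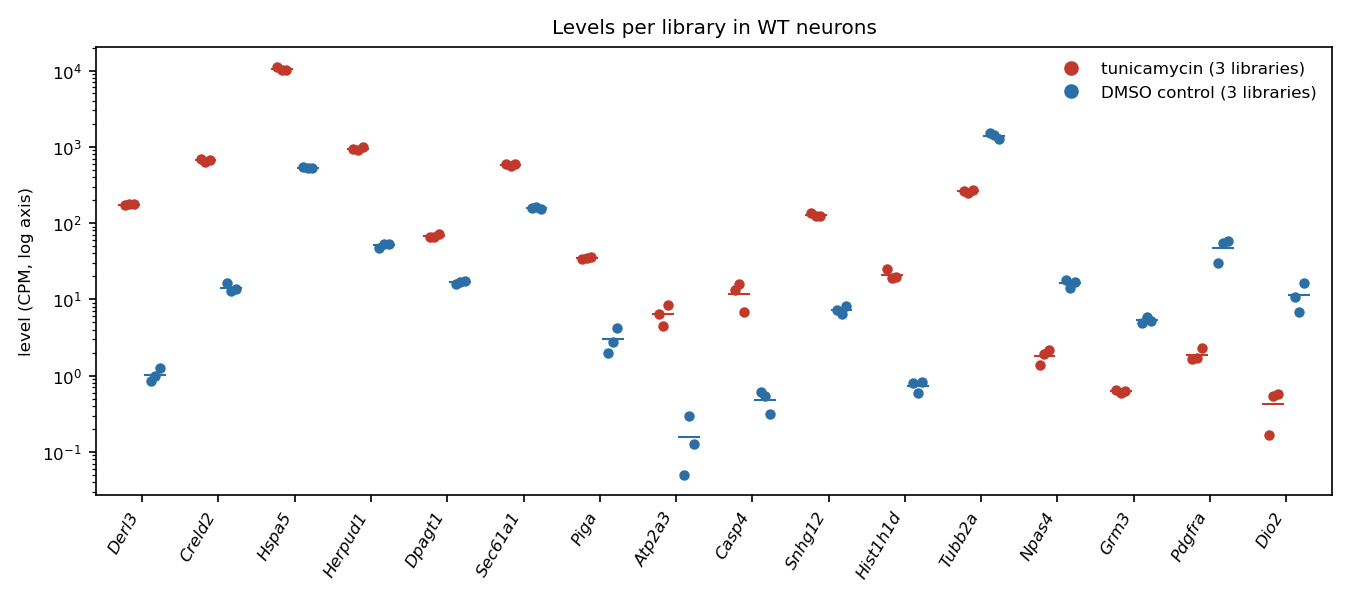
Levels in CPM (log axis) of 16 genes in each library, with TM-treated WT neurons left of control WT neurons; points are libraries and the line is the mean of 3. Derl3 stands at 171 to 178 CPM with TM and 0.854 to 1.25 CPM in controls, and Npas4 at 1.37 to 2.16 CPM with TM and 14.2 to 18.1 CPM in controls.

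Proteins enter the ER through the SEC61 channel, and the genes of this entry site rose nearly throughout. Of 24 genes of the translocon, the signal recognition receptor and the signal peptidase 21 rose, 17 of them over 2-fold, with a median of 1.19. Sec61a1, the channel's pore subunit, had 586, 556 and 594 CPM with TM and 157, 163 and 154 CPM in controls (1.87 ± 0.08, edgeR adjusted p = 5.3e-07). Its paralog Sec61a2 went the other way, with 45.4, 43.1 and 49.8 CPM in TM-treated neurons against 83.6, 84.4 and 76.8 CPM in controls (-0.82 ± 0.09, 0.000133). Neither gene's groups overlapped. The receptor subunit Srprb (1.78 ± 0.10), the signal peptidase Sec11c (1.56 ± 0.09) and Tram1, which assists insertion of nascent chains (1.75 ± 0.08), also rose.

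The sugar tree and its transfer to proteins, the process that the drug blocks, showed rises as well. Dpagt1, the target of TM, had 66.6, 66.6 and 71.2 CPM with TM and 16, 17 and 17.2 CPM in controls, a change of 2.03 ± 0.10 (edgeR adjusted p = 1.31e-06) with no overlap. Of 27 tested genes of dolichol-linked glycan synthesis 14 rose and the other 13 did not pass the test, though 5 of these fell without control replicate 3. The mannosyltransferase Alg12, an ERSE gene, stood at 53.3, 54.4 and 52.6 CPM with TM and at 11.4, 9.59 and 9.16 CPM in controls (1.71e-06), and Gmppb, which makes GDP-mannose, changed by 1.29 ± 0.14. Of 12 oligosaccharyltransferase subunits 9 rose, 8 of them over 2-fold. The catalytic subunit Stt3a changed by 1.90 ± 0.08 and Ostc by 1.76 ± 0.13. Tusc3, an oxidoreductase subunit of the STT3B form, fell instead, with 213, 190 and 184 CPM in TM-treated and 261, 260 and 251 CPM in control neurons (-0.40 ± 0.08, 0.00358). Its paralog Magt1, named after its values were seen, had 59.4, 70.1 and 49 CPM with TM and 12.8, 12.5 and 18.3 CPM in controls (2.04 ± 0.19, 4.18e-05).

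Sugar supply followed a split pattern. Of 14 genes of hexosamine and sialic acid synthesis 7 rose and 3 fell. Gfpt1, the entry enzyme of the hexosamine pathway, rose by 1.77 ± 0.09 (edgeR adjusted p = 1.96e-06), Pgm3 by 1.90 ± 0.10, and the sialic acid synthase Nans by 2.64 ± 0.10. Among those that fell were Gfpt2, the second isoform of the entry enzyme (6.96, 9.23 and 10.6 CPM with TM, 21.8, 21.9 and 18.1 CPM in controls, 0.000536) and Cmas (-0.69). Gfpt1 and Gfpt2 thus moved in opposite directions, with no overlap of the groups in either.

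Beyond the ER, enzymes that trim and branch N-glycans in the Golgi mostly did not follow. Of 21 such genes 9 fell and 1 rose (median -0.21), but the number lower depended on the libraries. It was 6 without control replicate 2, TM replicate 1 or TM replicate 2, 7 without control replicate 1, and 10 without TM replicate 3. The gene that rose was Mgat2, with 165, 153 and 147 CPM in TM-treated and 58.5, 56.8 and 49.3 CPM in control neurons (edgeR adjusted p = 5.6e-06). The branching enzyme Mgat5 fell to 52.4, 53.9 and 61.2 CPM with TM, against 166, 163 and 161 CPM in controls (-1.55 ± 0.09, 2.85e-06). The mannosidase Man1a (-0.90) and the core fucosyltransferase Fut8 (-0.70) fell too.

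The GPI anchor is the second glycolipid made in the ER membrane, and Piga, a subunit of its first enzyme, had the largest change of the 24 tested genes of this pathway. Piga had 33.4, 35 and 35.5 CPM with TM and 2.01, 2.75 and 4.21 CPM in controls (3.55 ± 0.23, edgeR adjusted p = 6.59e-06). Of 24 genes of GPI synthesis and attachment 6 rose and 1 fell, which is close to the share over all genes for the rises. Next to Piga by size was Pign, with 25.5, 39.1 and 29.9 CPM in TM-treated and 11.2, 10.5 and 20.3 CPM in control neurons (1.18 ± 0.26, 0.00559). The gene that fell was Pigk (-0.29), and it lost its call when 1 of 4 libraries was left out (adjusted p 0.0553 to 0.111).

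Folding factors rose in most cases. Of 24 tested genes of the ER HSP70 and HSP90 system and its prolyl isomerases and canopy proteins 20 rose, 15 over 2-fold, with a median of 1.41. Sdf2l1, which keeps the BiP cochaperones active, had 617, 556 and 577 CPM with TM and 14.8, 14.7 and 10.2 CPM in controls (5.46 ± 0.15, edgeR adjusted p = 1.2e-07). The prolyl isomerase Fkbp11 stood at 47.4, 42.3 and 43.1 CPM with TM and at 1.91, 1.23 and 2.2 CPM in controls (4.65 ± 0.20, 7.5e-07). No TM library of these genes came near a control library. The secreted ER protein Manf (3.72 ± 0.11) and the cochaperone Dnajb9 (3.60 ± 0.14) rose as well. The genes that fell were Cnpy4 (-0.54) and Fkbp9 (-0.26), and both lost the call when 1 library was left out, Cnpy4 without TM replicate 1 (0.0621).

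Of 28 protein disulfide isomerases and ER oxidases 21 rose and 1 fell. Pdia4 stood at 2474, 2477 and 2577 CPM in TM-treated and at 86, 88.7 and 88.7 CPM in control neurons (4.84 ± 0.09, edgeR adjusted p = 1.85e-08). The oxidase Ero1l, which recharges these isomerases and yields hydrogen peroxide, rose by 3.02 ± 0.11 and P4hb by 2.29 ± 0.08. Gpx8, an ER peroxidase, was the gene that fell, with 11, 14.1 and 10.9 CPM with TM and 28.2, 19.9 and 28.9 CPM in controls (-1.10 ± 0.18, 0.00112). In the calnexin cycle, which holds glycoproteins until their sugars are trimmed, 8 of 9 genes rose, among them Calr (2.44 ± 0.10) and the folding sensor Uggt1 (1.49 ± 0.07).

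Genes for disposal and export rose alongside. Of 33 genes of ER-associated degradation 22 rose, 12 of them over 2-fold, and the other 11 did not pass. Next to Derl3 and Herpud1, Sel1l, the scaffold of the HRD1 ubiquitin ligase, had 1144, 1209 and 1360 CPM with TM and 208, 218 and 228 CPM in controls (2.50 ± 0.10, edgeR adjusted p = 4.39e-07). The mannose-trimming Edem1 (2.40 ± 0.10), the channel protein Derl2 (2.16 ± 0.07) and Selenos (2.38 ± 0.09) rose with it. Of 29 genes of the COPII coat and ER exit 26 rose, 16 over 2-fold, with a median of 1.14. The coat subunit Sec24d had 152, 154 and 166 CPM with TM and 36.9, 37.6 and 33.1 CPM in controls (2.13 ± 0.09, 6.76e-07), and the cargo receptor Surf4 rose by 1.80 ± 0.09.

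The return route rose less uniformly. Of 23 genes of the COPI coat and retrieval 15 rose and 3 fell (median 0.55). Kdelr3, a receptor that returns escaped ER proteins, changed by 1.92 ± 0.16 and Arfgap3 by 1.58 ± 0.09. The 3 that fell were Arf5 (93.6, 90.2 and 108 CPM with TM, 163, 158 and 144 CPM in controls, edgeR adjusted p = 0.000464), Arfgap2 (-0.33) and Copg2 (-0.28). Arfgap2 and Copg2 lost their calls when 1 library was left out. UFMylation, which tags ribosomes stalled at the ER, rose in 6 of 8 genes, 4 of them over 2-fold, with a median of 0.93.

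The ER also stores calcium, and genes of this function changed in both directions. Of 24 tested genes 10 rose and 8 fell (median -0.11), but the number lower depended on the libraries. It was 3 without TM replicate 1, 4 without TM replicate 2, 5 without TM replicate 3 or control replicate 2, and 10 without control replicate 3, while 9 or 10 rose in each of these. Atp2a3, a calcium pump gene of low level in these neurons, had 6.47, 4.53 and 8.39 CPM with TM and 0.0502, 0.295 and 0.126 CPM in controls, with no overlap (5.28 ± 0.46, edgeR adjusted p = 3.3e-05). The main pump gene Atp2a2 had 1884, 1952 and 2130 CPM with TM and 851, 895 and 936 CPM in controls (1.15 ± 0.09, 1.42e-05). Itpr1, the release channel gated by inositol trisphosphate, fell to 50.8, 54.1 and 57.1 CPM with TM, against 110, 112 and 113 CPM in controls (-1.05 ± 0.08, 1.75e-05). The luminal calcium binders Nucb2 (3.36 ± 0.15) and Nucb1 (2.16 ± 0.09) rose.

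**Figure D2:**
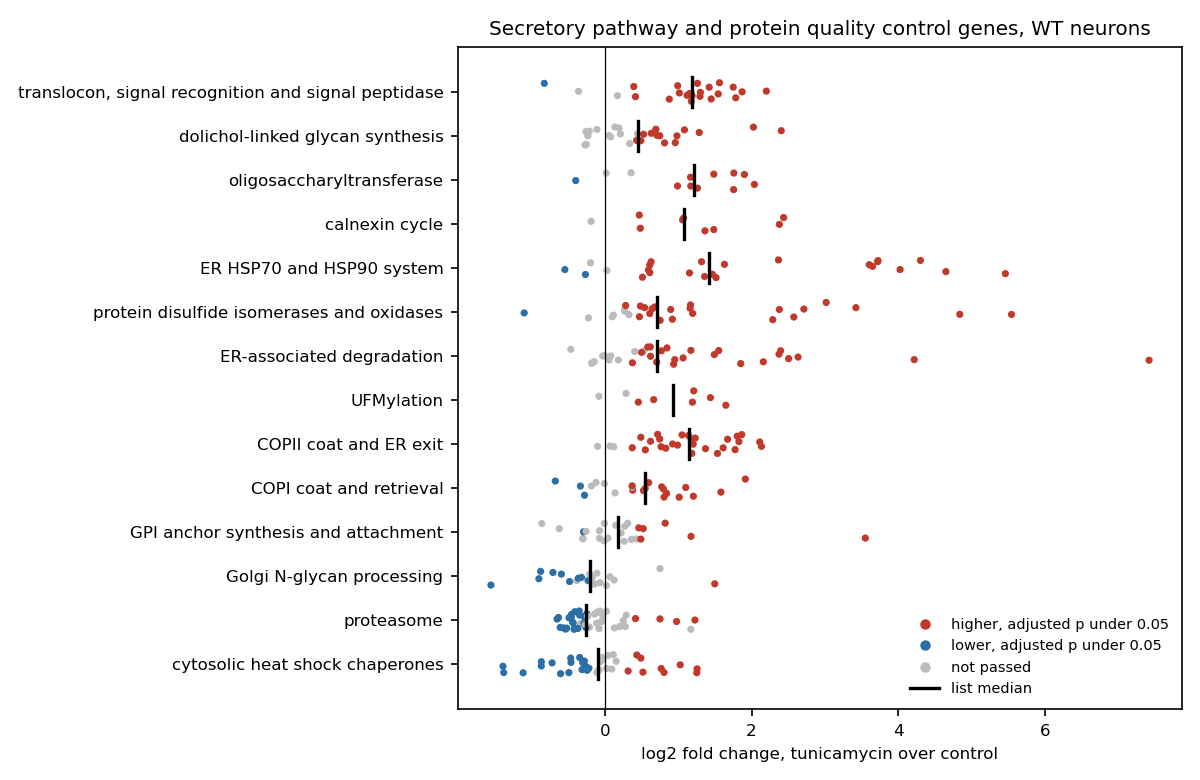
Log2 fold changes of TM over control in WT neurons for the tested members of 14 gene lists of the secretory pathway; each point is a gene, red if called higher, blue if called lower and grey if not passed, and the black bar is the list median. COPII genes lie almost wholly above 0 (26 of 29 called higher), while 9 of 21 Golgi N-glycan genes are called lower and 1 higher.

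The sensors of the response were themselves induced. Of 12 genes of the sensors and their processing 8 rose. Atf6 had 302, 333 and 329 CPM with TM and 71.8, 76.2 and 82.5 CPM in controls (2.06 ± 0.09, edgeR adjusted p = 7.51e-07). Ern1, the gene of IRE1, stood at 27.4, 29.8 and 31.9 CPM with TM and at 7.23, 7.38 and 9.6 CPM in controls (1.88 ± 0.15, 2.01e-05), and Eif2ak3 changed by 1.98 ± 0.10. All 3 sensor genes were higher in every TM library than in any control library. Of 10 transcripts that IRE1 is reported to cleave 5 fell and 1 rose. Scara3 fell to 1.75, 1.6 and 2.43 CPM with TM, against 9.85, 10.8 and 8.79 CPM in controls (-2.35 ± 0.21, 3.66e-05), and Pmp22, at 16.9, 12.4 and 17.9 CPM with TM, had 56.4, 46.9 and 40.4 CPM in controls (0.000114). Bloc1s1, the best known of these transcripts, was at -1.19 and lost its call without TM replicate 2 (0.0548). Sparc, the 1 that rose (0.38), lost it without control replicate 1 (0.0869).

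Among 44 tested genes of the bZIP family, which includes ATF4, CHOP and XBP1, 23 rose and 6 fell. Besides Atf3 and Ddit3, Cebpg, a partner of ATF4, stood at 128, 125 and 119 CPM with TM and at 43.9, 44.1 and 47.5 CPM in controls (1.46 ± 0.08, edgeR adjusted p = 2.71e-06). In the eIF2 group, 8 of 16 genes rose, led by Ppp1r15a, the inducible subunit of the eIF2 phosphatase, with 537, 499 and 572 CPM in TM-treated and 40.7, 41.6 and 41.7 CPM in control neurons (3.70 ± 0.09, 5.26e-08). The gene that fell was Eif2ak2, the kinase PKR, with 3.95, 3.25 and 3.59 CPM with TM and 5.98, 6.39 and 12.8 CPM in controls (-1.21 ± 0.31, 0.00963).

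Genes that restrain or rebuild translation changed next. Of 23 genes of mTORC1 regulation 8 rose and 3 fell. Eif4ebp1, a repressor of cap-dependent translation, had 155, 136 and 144 CPM with TM and 28.4, 26 and 19.2 CPM in controls (2.56 ± 0.14, edgeR adjusted p = 2.91e-06), and the mTORC1 inhibitors Sesn2 (2.40 ± 0.09) and Ddit4 (1.68 ± 0.11) rose. Depdc5 (-0.43), Sesn1 (-0.54) and Mtor (-0.31) fell, Mtor with a call lost when 1 of 3 libraries was left out (0.0675 to 0.105). Of 43 initiation and elongation factors 21 rose and 3 fell, with small changes (median 0.29), such as Eif3g (0.95 ± 0.12) and Eif1 (0.99 ± 0.08). The 3 were Eif4e3 (-0.69), Eif4a2 (-0.59) and Eif5a (-0.29). The calls of Eif4a2 and Eif5a were lost when 1 library was left out, and 6 factors fell without control replicate 3.

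Ribosome biogenesis genes rose in 25 of 36 cases and fell in 2 (median 0.55). Utp14a, which acts in the processing of small-subunit ribosomal RNA, had 32.7, 33.1 and 27.1 CPM with TM and 12.4, 12.7 and 11 CPM in controls (1.36 ± 0.13, edgeR adjusted p = 5.6e-05). Bop1, a factor of the large subunit, fell to 42.9, 40.5 and 42.8 CPM with TM, against 92, 93.4 and 78.6 CPM in controls (-1.07 ± 0.10, 3.92e-05). Nop10 was the other that fell (-0.33), with its call lost when 1 of 4 libraries was left out (0.0651 to 0.151).

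Host genes of small nucleolar RNAs, whose spliced transcripts are known targets of nonsense-mediated decay, rose. Of 19 tested genes of the Snhg family and related hosts 11 rose, 10 over 2-fold, and the other 8 did not pass. Snhg12 stood at 136, 125 and 123 CPM in TM-treated and at 7.33, 6.49 and 8.1 CPM in control neurons (4.13 ± 0.12, edgeR adjusted p = 1.14e-07). Snhg5 (137, 141 and 109 CPM with TM, 6.93, 6.94 and 8.29 CPM in controls) and Snhg1 (113, 112 and 94.1 CPM with TM, 5.22, 5.46 and 8.41 CPM in controls) showed the same order of change. No library of one group reached the other in these genes. Across biotypes, 18.7% of 970 noncoding genes other than pseudogenes rose and 18% fell, below the shares of protein-coding genes (28% and 26%). Because the kit is unstranded, a noncoding gene's reads cannot be separated from those of a gene that overlaps it on the opposite strand.

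Genes of cell death differed by list. In the BCL2 family 6 of 18 tested genes rose (33.3%), near the 27.0% over all genes. Only 1 fell (5.56%, against 24.8% over all genes), while 3 fell without control replicate 3. The gene that fell was Bnip3 (-0.27), whose call was lost when 1 of 5 libraries was left out (edgeR adjusted p 0.0574 to 0.112). Bbc3, the gene of the death activator PUMA, stood at 105, 113 and 122 CPM with TM and at 22.8, 21.7 and 18.3 CPM in controls (2.44 ± 0.11, 1.21e-06). Pmaip1, the gene of NOXA, rose by 1.74 ± 0.12, and Hrk, a neuronal member, by 0.94 ± 0.08. Of 20 p53 targets 14 rose and 1 fell (Sesn1), with Gdf15, a secreted stress hormone, at 64.5, 68.8 and 77.6 CPM with TM and 5.07, 4.38 and 5.71 CPM in controls (3.80 ± 0.14, 4.36e-07), and Mdm2 at 0.98 ± 0.08.

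Of 26 caspase and death receptor genes 11 rose and 4 fell. Casp4, an inflammatory caspase that senses bacterial lipid in macrophages, stood at 13.1, 15.8 and 6.8 CPM with TM and at 0.603, 0.541 and 0.314 CPM in controls (4.57 ± 0.40, edgeR adjusted p = 3.27e-05). Casp12, a relative that resides at the ER, fell to 1.1, 1.28 and 1 CPM with TM, against 2.36, 2.56 and 4.39 CPM in controls (-1.45 ± 0.32, 0.00499). Both moved with no overlap, in opposite directions. Cflar, an inhibitor of death receptor signalling, rose by 1.89 ± 0.14. The other genes that fell were Birc5 (-1.86), Tnfrsf21 (-0.71) and Casp1 (-1.18), the last with its call lost without TM replicate 1 (0.0564).

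Immune genes split. Of 24 tested NF-kB subunits and targets 13 rose and 5 fell. The chemokine gene Cxcl1 had 36.3, 32.6 and 29.3 CPM with TM and 1.05, 3.05 and 1.76 CPM in controls (4.05 ± 0.31, edgeR adjusted p = 1.48e-05), and Cxcl2, at 13.1, 6.99 and 8.12 CPM with TM, had 0.151, 0.148 and 0.377 CPM in controls. Nfkbia, the inhibitor that NF-kB itself induces, fell to 24, 23.3 and 21.1 CPM with TM, against 35.9, 38.7 and 29.1 CPM in controls (-0.60 ± 0.13, 0.00519). Sod2 (-0.72), Traf1 (-1.19), Bcl3 (-1.35) and Nfkbiz (-0.71) fell too, the last 2 with calls lost when 1 library was left out. Of 33 interferon-stimulated genes 19 fell, 13 of them over 2-fold, and 4 rose. Oasl2 stood at 1.64, 1.33 and 2 CPM with TM and at 9.14, 13.9 and 15.9 CPM in controls (-2.96 ± 0.26, 3.68e-05), while Tap1, the peptide transporter of antigen presentation, stood at 29, 29.8 and 29.4 CPM with TM and at 15, 18 and 14.8 CPM in controls (0.88 ± 0.12, 0.000371). Bst2 (0.62) and the class I genes H2-D1 (0.65) and H2-K1 (0.59) were the others that rose, and the class I genes are similar enough in sequence for reads to be shared between them.

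Among NRF2 targets, which counter oxidants, 12 of 26 rose and 8 fell. Hmox1 had 1455, 1475 and 1635 CPM with TM and 150, 183 and 160 CPM in controls (3.21 ± 0.11, edgeR adjusted p = 2.96e-07), and Srxn1 rose by 1.21 ± 0.10. Gstm1, a glutathione transferase, fell to 280, 238 and 280 CPM with TM, against 741, 697 and 669 CPM in controls (-1.40 ± 0.09, 6.98e-06). Core autophagy genes rose in 15 of 33 cases and fell in 2, Gabarapl2 (-0.61) and Atg4d (-0.39). The call of Atg4d was lost when 1 library was left out, and 4 fell without control replicate 3. The receptor Sqstm1 rose by 1.21 ± 0.11 and the initiation factor Atg13 by 1.55 ± 0.08. Of 40 lysosomal genes 11 rose and 12 fell (27.5% and 30%), close to the shares over all genes (27.0% and 24.8%). The cholesterol exporter Npc1 rose by 2.02 ± 0.09 and the proton pump subunit Atp6v1a fell by 0.80 on the log2 scale.

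Proteasome and cytosolic chaperone genes fell more often than they rose. Of 44 proteasome genes 21 fell and 4 rose (median -0.25), and without TM replicate 2 the number lower was 13. Psmd1, a scaffold of the regulatory particle, stood at 176, 180 and 171 CPM with TM and at 276, 275 and 263 CPM in controls (-0.63 ± 0.07, edgeR adjusted p = 0.000131). The 4 that rose were the assembly chaperones Psmg2 (1.23 ± 0.11), Psmg3 (0.98 ± 0.14), Psmg1 (0.75 ± 0.14) and Psmg4 (0.42), the last with its call lost when 1 library was left out. Of 38 cytosolic heat shock chaperones 17 fell and 9 rose, and the number lower was 9 to 11 when control replicate 1 or 2 or any TM replicate was left out. The nucleotide exchange factor Hsph1 fell to 199, 187 and 179 CPM with TM, against 347, 359 and 323 CPM in controls (-0.86 ± 0.08, 4.34e-05), and Hspa8, the constitutive HSP70, changed by -0.72 ± 0.11.

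Mitochondrial chaperone and protease genes rose more often than they fell, while nuclear genes of the respiratory chain fell or did not pass. Of 24 mitochondrial chaperones and proteases 10 rose and 5 fell (8 without control replicate 3), with the protease Lonp1 at 404, 370 and 383 CPM in TM-treated and 149, 149 and 118 CPM in control neurons (1.48 ± 0.11, edgeR adjusted p = 1.15e-05) and the mitochondrial HSP70 Hspa9 at 1.42 ± 0.08. Of 76 tested nuclear genes of the respiratory chain 37 fell and the other 39 did not pass, and without control replicate 3 the number lower was 56. Atp5g3, a subunit of the ATP synthase ring, had 135, 125 and 138 CPM with TM and 305, 287 and 253 CPM in controls (-1.09 ± 0.09, 2.72e-05), and Uqcrh fell by 1.02 on the log2 scale. Among 13 protein-coding genes of mitochondrial DNA 2 fell, 1 without control replicate 1 or TM replicate 3 and 4 without control replicate 2, and 11 did once transcript GC content was corrected for.

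Most genes of glycolysis fell. Of 31 genes of glucose uptake and glycolysis 18 fell and 4 rose. Ldha, which turns pyruvate to lactate, had 179, 163 and 172 CPM with TM and 790, 738 and 562 CPM in controls (-2.02 ± 0.13, edgeR adjusted p = 5.81e-06), and Eno1 (-1.32 ± 0.10) and Pgam1 (-1.26 ± 0.11) fell. Hk2, the inducible hexokinase, stood at 54.1, 57 and 69.6 CPM with TM and at 6.58, 7.23 and 6.15 CPM in controls (3.17 ± 0.14, 9.88e-07). Pck2 (2.42 ± 0.11), the glucose transporter Slc2a1 (0.85 ± 0.12) and Pfkfb3 (0.22), which lost its call when 1 library was left out, were the others that rose. Hk2 and Ldha showed no overlap of the groups.

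Most genes of fatty acid and cholesterol synthesis fell, and those of other lipids changed in both directions. Of 19 tested genes of fatty acid synthesis 12 fell and 2 rose, Elovl1 (1.16 ± 0.13) and Elovl4 (0.53). Thrsp, an activator of fatty acid synthesis, had 3.29, 3.79 and 3.01 CPM with TM and 65, 53.9 and 52 CPM in controls (-4.08 ± 0.15, edgeR adjusted p = 4.36e-07), and the desaturase Scd2 had 1168, 1158 and 1291 CPM with TM and 3352, 3329 and 3290 CPM in controls (-1.46 ± 0.08, 3.12e-06). Among 25 cholesterol genes 24 fell and 1 rose, the sterol isomerase Ebp, with 56, 57.2 and 53.1 CPM in TM-treated and 32.7, 34.5 and 24.9 CPM in control neurons (0.85 ± 0.13, 0.000763). Of 28 tested genes of phospholipid and triglyceride synthesis 7 rose and 8 fell (25% and 28.6%, median 0.18), close to the shares over all genes. After the GC correction 9 rose and 9 fell.

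**Figure D3:**
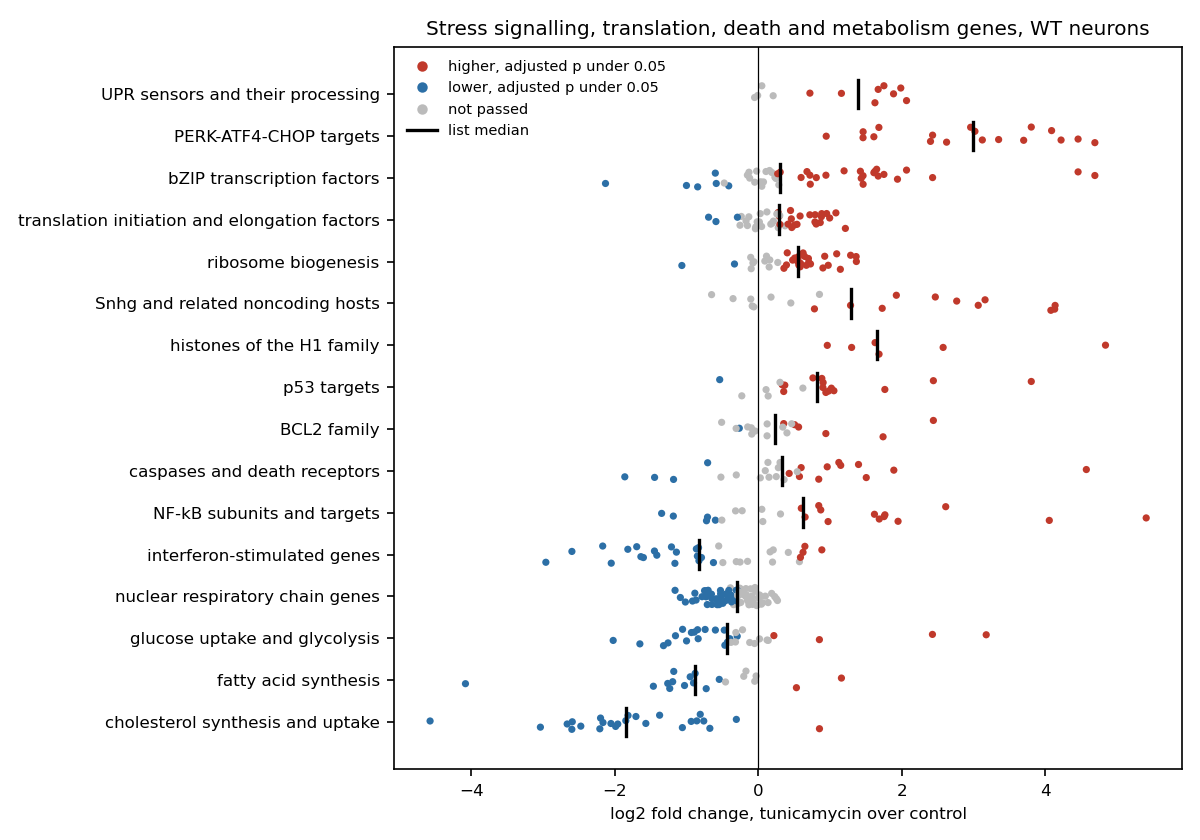
Log2 fold changes of TM over control in WT neurons for the tested members of 16 gene lists of stress signalling, translation, cell death, quality control and metabolism; points are genes, red if called higher, blue if called lower and grey if not passed, and the black bar is the list median. Snhg hosts reach 4.13 (Snhg12), whereas 37 of 76 nuclear respiratory chain genes and 18 of 31 glycolysis genes are called lower.

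Genes by which neurons fire were lower after TM. Of 51 potassium channel genes 32 fell, 13 over 2-fold, and 4 rose. Kcnv1, a silent modifier of other potassium channels, had 11.6, 11.1 and 7.96 CPM with TM and 57.4, 48.9 and 61.3 CPM in controls (-2.45 ± 0.16, edgeR adjusted p = 7.95e-06). Kcnj10, the inward rectifier typical of glia, stood at 25.4, 26.7 and 48.5 CPM with TM and at 277, 276 and 343 CPM in controls (-3.15 ± 0.24, 1.73e-05). Kcnt2, a sodium-activated channel, went the other way, with 18, 20.9 and 14.7 CPM in TM-treated and 3.62, 1.87 and 5.46 CPM in control neurons (2.31 ± 0.33, 0.000471), as did Hcn4 (0.82), Kcnk2 (0.72) and Kcna6 (0.56). Of 12 tested sodium channel genes 7 fell, with the beta subunit Scn2b at 93.6, 100 and 101 CPM in TM-treated and 205, 195 and 175 CPM in control neurons (-0.96 ± 0.09, 3.68e-05). Of 19 calcium channel genes 10 fell and 2 rose, Cacng3 (0.72 ± 0.08) and Cacnb2 (0.49, with its call lost when 1 of 5 libraries was left out), and the number lower was 6 without TM replicate 1.

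Receptor genes followed. Of 24 tested glutamate receptor genes 13 fell and the other 11 did not pass. Grm3, a metabotropic receptor found in neurons and astrocytes, had 0.658, 0.587 and 0.633 CPM with TM and 4.97, 5.95 and 5.21 CPM in controls (-3.09 ± 0.23, edgeR adjusted p = 1.42e-05). Grin1, the obligatory subunit of NMDA receptors, had 108, 107 and 136 CPM with TM and 230, 226 and 230 CPM in controls (-0.97 ± 0.10, 9.59e-05). Of 17 GABA and glycine receptor genes 9 fell, and 14 after the GC correction. The extrasynaptic subunit Gabrd fell by 1.49 and the metabotropic Gabbr2 by 1.15 on the log2 scale.

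The structures that hold these receptors fell in most cases. Of 28 postsynaptic scaffolds and kinases 23 fell and 1 rose. Camk2b, a kinase of synaptic plasticity, had 460, 453 and 457 CPM with TM and 1009, 1057 and 886 CPM in controls (-1.11 ± 0.09, edgeR adjusted p = 1.91e-05), and the scaffold Homer2 fell by 1.48 on the log2 scale. Dlg1, which encodes the scaffold SAP97, was the gene that rose, with 150, 163 and 124 CPM in TM-treated and 92.5, 81.6 and 99.5 CPM in control neurons (0.67 ± 0.12, 0.00168). Of 49 tested genes of synaptic and axonal adhesion 29 fell, among them Cntnap2, which clusters potassium channels along axons (-0.70 ± 0.10), and the synapse organiser Lrrtm3 (-1.16 ± 0.13).

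Neuropeptide genes had a lower median than the channel, receptor, scaffold and adhesion lists. Of 30 tested neuropeptide and granule genes 22 fell (median -0.91) and the other 8 did not pass. Pnoc, the precursor of nociceptin, stood at 8.33, 6.83 and 9.55 CPM with TM and at 51.9, 45.3 and 43.5 CPM in controls (-2.51 ± 0.15, edgeR adjusted p = 4.17e-06). Pcsk1, the convertase that cuts prohormones, had 5.59, 4.59 and 4.64 CPM with TM and 22.8, 17.7 and 24.5 CPM in controls (-2.13 ± 0.17, 2.21e-05). Nptx2, a pentraxin that gathers AMPA receptors, had 30, 26.6 and 34.3 CPM with TM and 145, 144 and 140 CPM in controls (-2.24 ± 0.11, 1.32e-06). All 3 were lower in each TM library than in any control library. In contrast, 12 of 19 secreted stress factors rose, with Stc2, a stanniocalcin, at 126, 124 and 136 CPM in TM-treated and 13.3, 18.4 and 17.6 CPM in control neurons (2.97 ± 0.13, 9.88e-07), Angptl6 at 2.83 ± 0.14 and the vascular growth factor Vegfa at 1.90 ± 0.09. Igf1 (-1.73), Igfbp4 (-0.74) and Igfbp5 (-2.79) were the 3 that fell.

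The cytoskeleton lost its most abundant transcripts. Of 37 genes of the neuronal cytoskeleton 27 fell, 11 over 2-fold. Tubb2a had 264, 245 and 272 CPM with TM and 1502, 1416 and 1262 CPM in controls (-2.42 ± 0.10, edgeR adjusted p = 5.26e-07), Tubb4a fell by 2.41 and Tuba1a by 2.01 on the log2 scale. Tubulin genes are near copies of each other, so how reads were divided among them is uncertain. Of 24 tested axon injury genes 7 rose and 6 fell (29.2% and 25%), close to the shares over all genes. The majority turned with DESeq2 size factors, the GC correction or without control replicate 1 or 2 (7 or 8 higher, 8 or 9 lower). Those that rose included the transcription factor Klf4 at 22.1, 25.8 and 29.6 CPM in TM-treated and 2.26, 2.66 and 3.39 CPM in control neurons (3.23 ± 0.19, 4.14e-06) and Gadd45a, a DNA damage response gene, at 3.84 ± 0.14. Gap43, the growth cone protein, fell to 426, 349 and 412 CPM with TM, against 1114, 943 and 907 CPM in controls (-1.32 ± 0.11, 2.81e-05).

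Most activity-dependent genes fell. Of 25 tested immediate early genes 17 fell, 11 over 2-fold, and 4 rose. Npas4, which is induced by calcium entry in neurons, had 1.37, 1.92 and 2.16 CPM with TM and 18.1, 14.2 and 16.8 CPM in controls (-3.16 ± 0.21, edgeR adjusted p = 6.51e-06). Arc, a regulator of AMPA receptor uptake, had 21.3, 19.7 and 18.8 CPM with TM and 77, 69.4 and 59.6 CPM in controls (-1.78 ± 0.12, 8.54e-06). Ptgs2, the gene of cyclooxygenase 2, rose to 21.5, 24.7 and 21.1 CPM with TM, against 2.81, 3.69 and 4.58 CPM in controls (2.61 ± 0.19, 1.29e-05). Ier2 (0.95 ± 0.16), Btg2 (0.37) and Plk2 (0.25) were the other 3, and the calls of the last 2 were lost when 1 library was left out.

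Genes of excitatory identity moved in both directions, while the called genes of inhibitory identity nearly all fell. Of 20 tested genes of excitatory neuron identity 10 fell and 4 rose. Slc17a7, the vesicular glutamate transporter of the cortex, had 165, 169 and 164 CPM with TM and 313, 369 and 302 CPM in controls (-0.98 ± 0.09, edgeR adjusted p = 4.74e-05). The forebrain transcription factor Bcl11a (89.3, 97.5 and 102 CPM with TM, 47.4, 57.2 and 65.7 CPM in controls, 0.00104) rose, as did Zbtb18 (0.53) and Tbr1 (0.40, with its call lost when 1 of 3 libraries was left out). Of 21 genes of inhibitory neuron identity 12 fell and 1 rose, Dlx6 (0.60). The calcium buffer Calb1 stood at 14.1, 14.5 and 12 CPM with TM and at 72.5, 40.4 and 68.9 CPM in controls (-2.16 ± 0.22, 7.19e-05), and Gad1, which makes GABA, fell by 0.71 on the log2 scale.

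**Figure D4:**
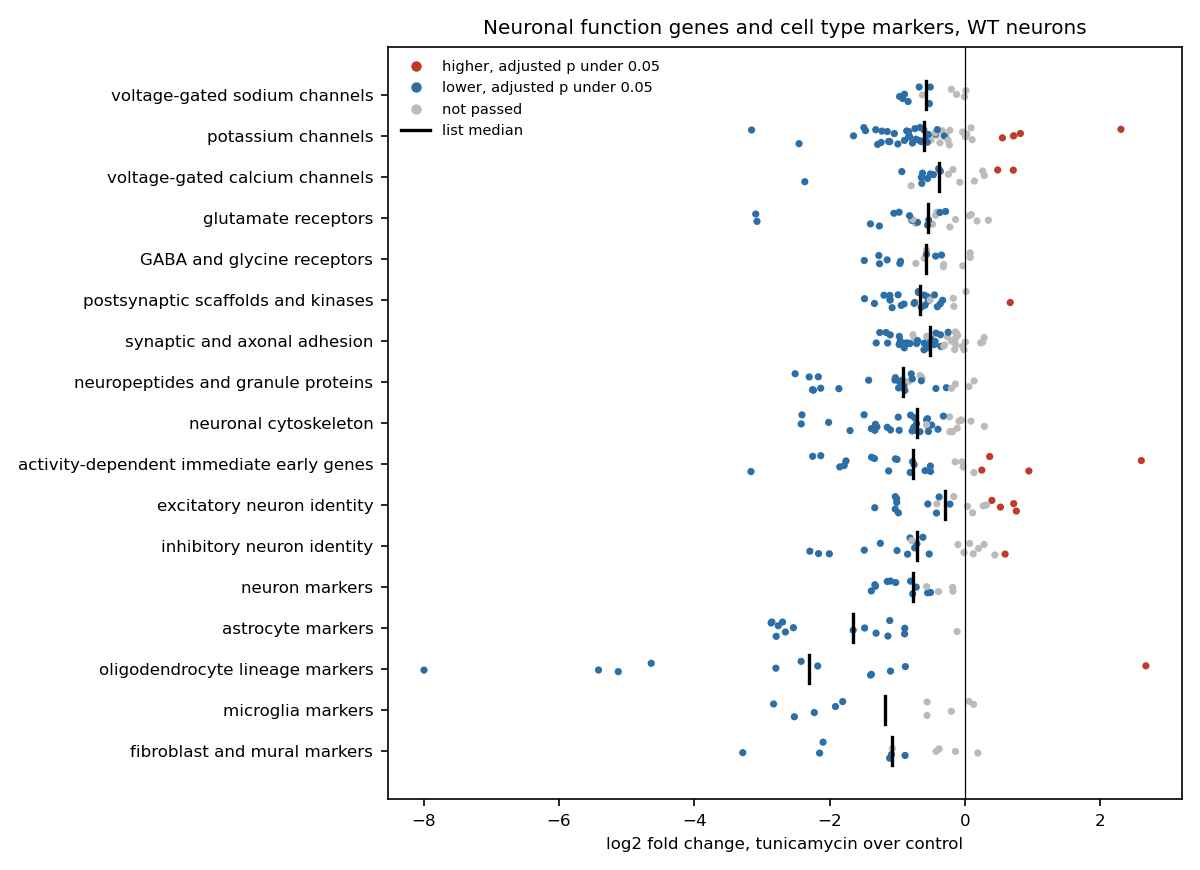
Log2 fold changes of TM over control in WT neurons for the tested members of 12 lists of neuronal function and identity and 5 lists of cell type markers; points are genes, red if called higher, blue if called lower and grey if not passed, and the black bar is the list median. Postsynaptic genes (23 of 28 lower) and neuropeptide genes (22 of 30 lower) lie mostly below 0, as do astrocyte markers (14 of 15 lower).

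Growth factor receptors fell in 20 of 36 cases and rose in 6. Pdgfra, the receptor that marks oligodendrocyte precursors, had 1.64, 1.71 and 2.32 CPM with TM and 30.3, 54.1 and 57.4 CPM in controls (-4.64 ± 0.29, edgeR adjusted p = 5.18e-06). The BDNF receptor Ntrk2 had 441, 442 and 510 CPM with TM and 1004, 937 and 1004 CPM in controls (-1.08 ± 0.09, 2.26e-05), and the insulin receptor Insr 101, 106 and 113 CPM with TM and 39.6, 38.9 and 49.4 CPM in controls (1.32 ± 0.11, 2.73e-05). Genes of proliferation fell in 22 of 35 cases and rose in 4. Ccna2, a cyclin of dividing cells, had 1.37, 1.28 and 1.53 CPM with TM and 8.89, 9.59 and 9.54 CPM in controls (-2.74 ± 0.18, 6.84e-06). The cell cycle inhibitor Cdkn1b (1.11 ± 0.07) and the replication factors Cdt1 (1.58 ± 0.15), Mcm7 (1.12) and Gins2 (0.93) rose. Oligodendrocyte lineage and astrocyte markers fell alongside these genes, as given above.

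Linker histone genes rose although proliferation genes fell. All 6 tested H1 genes passed, 5 over 2-fold. Hist1h1d stood at 24.9, 19 and 19.4 CPM with TM and at 0.804, 0.59 and 0.816 CPM in controls (4.84 ± 0.21, edgeR adjusted p = 9.75e-07), and Hist1h1c at 557, 484 and 515 CPM with TM and 93.2, 96 and 71.7 CPM in controls (2.57 ± 0.12, 1.44e-06). H1f0, the replacement form of resting cells, rose by 1.63 ± 0.09. Hist1h1b (1.30) did not pass when control replicate 1 was left out (0.0672), nor when control replicate 2 was (0.105), nor under DESeq2 (0.138). Of 21 tested core histone genes, a set chosen after its values were seen, 14 rose and 1 fell. Histone genes resemble each other, so reads may have been divided between copies.

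Extracellular matrix genes changed by class. Of 13 tested genes of lecticans, hyaluronan and perineuronal nets 10 fell and 2 rose. Hapln1, which links lecticans to hyaluronan, had 7.46, 7.52 and 4.48 CPM with TM and 72.5, 34.5 and 72 CPM in controls (-3.20 ± 0.32, edgeR adjusted p = 6.96e-05). Its relative Hapln4 had 18.4, 19.1 and 20 CPM with TM and 2.26, 2.46 and 2.95 CPM in controls (2.91 ± 0.16, 2.48e-06), and the glycoprotein Tnc rose by 2.23 ± 0.23. Neither link protein's groups overlapped. Of 41 collagen and matrix genes 12 rose and 14 fell (29.3% and 34.1%, against 27.0% and 24.8% over all genes). The higher outnumbered the lower without TM replicate 1 (11 and 8), TM replicate 2 (11 and 10) or control replicate 2 (12 and 11). The laminin chain Lama1 stood at 93.1, 92.8 and 113 CPM with TM and at 8.99, 5.51 and 7.41 CPM in controls (3.77 ± 0.18, 1.43e-06). Serpinh1, the collagen chaperone of the ER, rose by 2.36 ± 0.09.

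Some of the largest changes lay outside all these groups. Fibin, a secreted protein first described in fin development of fish, had 74.7, 68.7 and 62.2 CPM with TM and 1.61, 2.61 and 1.38 CPM in controls (5.18 ± 0.21, edgeR adjusted p = 6.47e-07). Avil, which severs actin and is known from sensory neurons, had 19.5, 19.2 and 19.4 CPM with TM and 0.854, 0.492 and 1.19 CPM in controls (4.54 ± 0.25, 2.61e-06). Among the falls, Slc25a18, a mitochondrial glutamate carrier of astrocytes, had 4.93, 4.75 and 5.22 CPM with TM and 63.4, 60.8 and 56.7 CPM in controls (-3.60 ± 0.12, 2.53e-07). Apln, a vascular peptide, fell by 3.08 and the deiodinase gene Dio2 by 4.69 on the log2 scale. No library of the TM group overlapped the controls in these 5 genes.

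A few genes were read almost wholly in 1 of the groups. Hoxb9, a transcription factor of posterior body identity, had 22, 25 and 33 counts in TM libraries and 0 counts in each control library, at least 27.4-fold higher against a floor of 3 counts over the control group. Chil3, a chitinase-like protein, had 68, 37 and 41 counts with TM and 1, 0 and 1 counts in controls, and Ffar2, a receptor for short fatty acids, 57, 40 and 45 counts with TM and 0, 1 and 0 counts in controls. In the other direction, the potassium channel gene Kcng4 had 0, 1 and 0 counts with TM and 41, 51 and 30 counts in controls. Gsx1, a transcription factor of ventral forebrain progenitors, had 0, 1 and 1 counts with TM and 38, 41 and 32 counts in controls. These counts are low, and only counting error is covered by the floor.

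Whether the response of WT neurons differed from that of Perk KO neurons was tested by the interaction of genotype and TM over 12 neuron libraries. Perk KO neurons had active Cre and WT neurons the inactive ΔCre, so loss of Perk and active Cre cannot be told apart in these differences. Of 15939 genes tested, 2449 (15.4%) had a response in WT neurons above that in Perk KO neurons and 2304 (14.5%) below it. Among genes called in both genotypes and also for the interaction, 333 moved in opposite directions, 85 of them higher and 248 lower in WT neurons. The number of genes so called was not taken, so this count carries no share. The 2 responses have no libraries in common, but each enters the tested difference.

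Secretory genes differed in degree by class. The response of WT neurons was above that of Perk KO neurons for 18 of 29 COPII genes, 15 of 33 ER-associated degradation genes and 14 of 28 disulfide isomerases and oxidases, but for 2 of 12 oligosaccharyltransferase subunits. Stt3a rose by 1.90 in WT neurons and by 1.38 in Perk KO neurons, whereas Sel1l rose by 2.50 in WT and by 0.53 in Perk KO neurons (interactions 0.56 and 2.00, edgeR adjusted p = 0.0078 and 4.6e-07). Piga, at 3.55 in WT neurons, was at 0.30 in Perk KO neurons, a change that did not pass there (interaction 3.27, 1.4e-05). Hk2 likewise was at 3.17 in WT and 0.19 in Perk KO neurons (3.01, 3.4e-06), and Casp4 at 4.57 in WT and 0.40 in Perk KO neurons (4.21, 0.0003). In Perk KO neurons neither passed the test.

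The response of WT neurons was also above that of Perk KO neurons for 26 of 36 ribosome biogenesis genes, 19 of 43 translation factors and 10 of 19 Snhg hosts. Snhg17 rose by 3.16 in WT neurons and was at 0.55 in Perk KO neurons without passing (interaction 2.64, edgeR adjusted p = 2e-05). On the other side, the response of WT neurons lay below that of Perk KO neurons for 21 of 30 neuropeptide and granule genes, 21 of 40 lysosomal genes, 16 of 31 glycolysis genes and 11 of 19 genes of fatty acid synthesis. Npas4 fell in WT neurons, and its change of 0.83 in Perk KO neurons did not pass (interaction -3.96, 2.5e-05). Nptx2, at -2.24 in WT neurons, was at 0.31 in Perk KO neurons (-2.52, 4.9e-05), also short of the threshold there. For 14 of 15 astrocyte markers the response in WT neurons lay below that in Perk KO neurons, so that markers of glia differed along with these lists, and their part was not tested.

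Some falls of WT neurons had a counterpart without a detected difference. Kcnv1 fell by 2.45 in WT and by 2.43 in Perk KO neurons (interaction 0.02, edgeR adjusted p = 0.97), and Egr3, an immediate early gene, by 1.85 in WT and by 1.98 in Perk KO neurons (0.16, 0.48). For other genes of the forebrain a difference was called. Neurod6 fell by 1.33 in WT neurons and by 2.26 in Perk KO neurons (interaction 0.97, edgeR adjusted p = 0.0052). Bcl11a, which rose by 0.76 in WT neurons, fell by 0.65 in Perk KO neurons (1.44, 0.00022). Of 20 genes of excitatory identity, 7 had a response in WT neurons above that in Perk KO neurons and 1 below it.

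The cell type interaction, over 12 libraries of WT neurons and WT astrocytes, compared the response of neurons with that of astrocytes. Of 15712 genes tested, 1947 (12.4%) responded more positively in neurons and 1970 (12.5%) in astrocytes. Among genes called in both cell types and also for the interaction, 389 moved in opposite directions, 245 higher and 144 lower in neurons. This count too carries no share. Genes that both cell types express are compared best, since a neuronal gene near 0 in astrocyte cultures has no response there to measure.

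The response of neurons lay below that of astrocytes for 28 of 44 proteasome genes, 20 of 36 ribosome biogenesis genes and 16 of 38 cytosolic heat shock chaperones, and for 8 of 29 COPII and 9 of 33 degradation genes. Psmd1, which fell by 0.63 in neurons, was at 0.05 in astrocytes (interaction -0.86, edgeR adjusted p = 0.00043). In hexosamine and sialic acid synthesis 6 of 14 genes lay below astrocytes, in dolichol-linked glycan synthesis 6 of 27 (with 3 above), and among oligosaccharyltransferase subunits 1 of 12 (with 1 above). Gfpt1 stood at 1.77 in neurons and 2.55 in astrocytes (-0.95, 0.0057) and Gmppb at 1.29 in neurons and 2.34 in astrocytes (-1.23, 0.00092). Without control replicate 1 of the astrocytes, the number of all genes below astrocytes was 1219.

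Above astrocytes stood 18 of 41 collagen and matrix genes, 13 of 18 targets of PERK, ATF4 and CHOP, 8 of 19 Snhg hosts and all 6 H1 genes. Atf3 rose by 4.69 in neurons and by 1.52 in astrocytes (interaction 3.00, edgeR adjusted p = 0.0001), and Gdf15 by 3.80 in neurons and 0.77 in astrocytes (2.86, 4.3e-05). Bbc3 rose by 2.44 in neurons and fell by 0.38 in astrocytes (2.64, 3.6e-06). Pmaip1 rose by 1.74 in neurons and did not pass in astrocytes (1.57, 0.0041). Serpinh1 rose in both, by 2.36 in neurons and 1.54 in astrocytes (0.64, 0.019). Atf3 and Ddit3 are part of the target list by definition, and that list was among those known to rise when the lists were chosen.

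**Figure D5:**
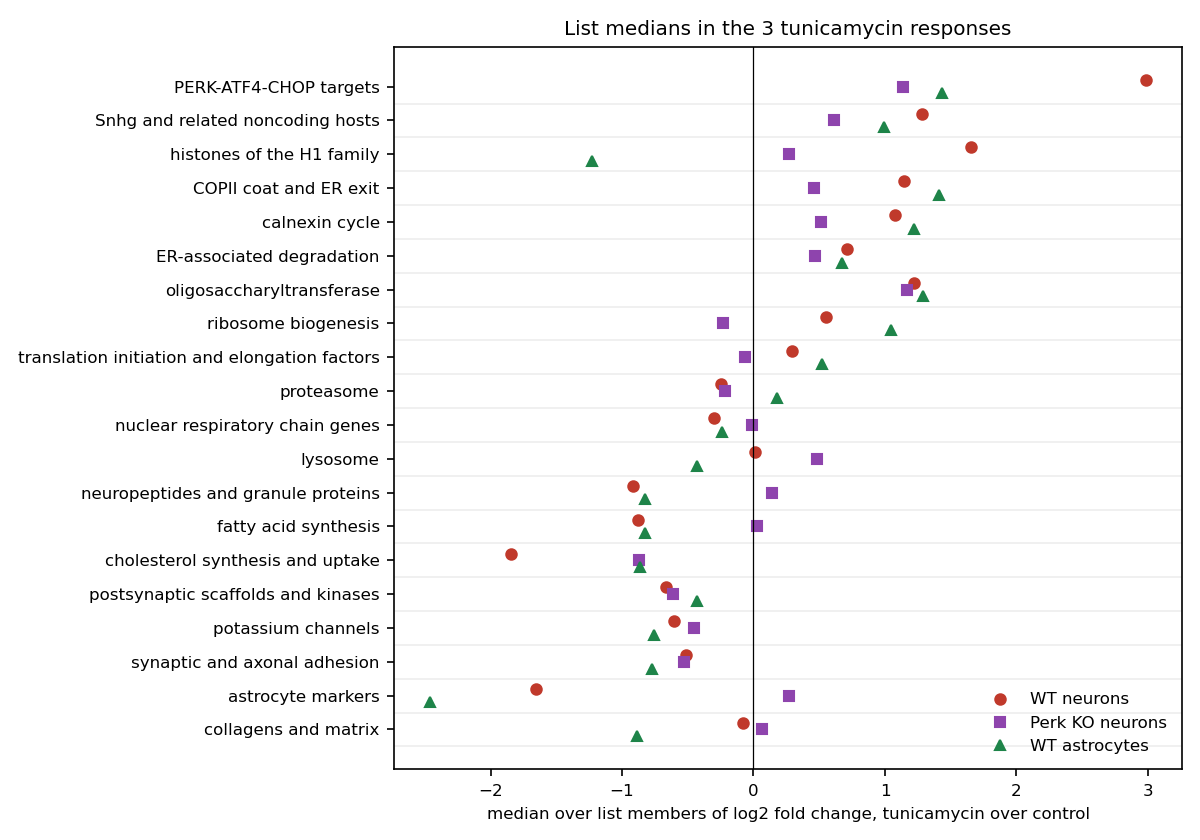
Median log2 fold change of TM over control for 20 gene lists in WT neurons, Perk KO neurons and WT astrocytes, each over the members tested in WT neurons. The median of COPII genes is 1.14 in WT neurons, 0.46 in Perk KO neurons and 1.41 in WT astrocytes, and that of Snhg hosts is 1.28, 0.61 and 0.99 in the same order; the medians carry no test.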

How the data were processed

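RNA was sequenced from cultured cells as paired-end libraries with a kit that does not record strand, per the labels' protocols. The submitters' processing notes name fastp, HISAT2, featureCounts, DESeq2 and GRCm38.p6. Versions and the annotation release are not given in the sources used here. Deposited tables hold raw counts per gene and FPKM computed by the authors. The FPKM columns divide by 0.917 to 0.929 times the listed total in control libraries and 1.03 to 1.06 times in TM libraries, so FPKM served for ranks and levels and no test. Each table lists only genes with at least 2 counts over its libraries.

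Counts of the 3 TM and 3 control WT neuron libraries were tested with edgeR 4.0.16 (R 4.3.3): TMM scaling, genes averaging 10 or more counts, the quasi-likelihood test on 4 residual degrees of freedom and Benjamini-Hochberg adjustment over 15546 genes, with calls at an adjusted p under 0.05. Standard errors are the log2 change divided by the square root of F. The interactions of genotype and of cell type with TM used 12 libraries and 8 residual degrees of freedom each. The other settings were DESeq2 1.42.0, its size factors in edgeR, no filter on low counts, leaving out each library, a replicate block and a correction for transcript GC content in 20 bins. The main edgeR fits of the TM response in WT neurons and of both interactions were tested on simulated counts. The other settings were not tested in this way. Promoter windows and sequences are from RefSeq (GRCm38.p6). Summaries and plots used Python 3.11.15, pandas 2.3.3, numpy 2.4.6 and matplotlib 3.10.9.

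The gene lists, which are textbook groups, and the rule for naming genes were chosen with earlier results of these data known. The rule took the 20 largest rises and falls among called protein-coding genes averaging 100 counts or more whose libraries did not overlap, and the 6 largest of each among noncoding genes. It also took up to 6 members of each list by p and called members against a list's majority where 5 or fewer. Opposite interactions gave the 4 largest of each sign among protein-coding genes averaging 100 counts or more in WT neurons. The rule further took genes at 0.1 CPM or less in all libraries of 1 group and at least 1 CPM in all of the other, and the 10 largest gains and losses in share. Fewer are printed than it took, and genes outside it are said to be so where named. Replicates of WT neurons differed beyond sampling noise (chi-square of 6.6 to 26.3 per gene), so each counts as 1 sample. In Perk KO neurons and WT astrocytes this value was 6.71 to 64.17 and 10.12 to 59.19. Near-identical copies (tubulin, histone and class I genes, Eef1a1) share reads in an unknown way. A few genes are not reported here.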

Additional observations from a re-analysis of the deposited data

Results flagged for a closer look

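Some genes called in both genotypes moved in opposite directions in WT and Perk KO neurons, and the interaction test (edgeR, Benjamini-Hochberg) called the difference. Only protein-coding genes averaging 100 counts or more over the WT neuron libraries were ranked here. The largest differences above Perk KO were those of the matrix protease Adamts14 (difference 3.20 on the log2 scale, with 1.83 in WT and -1.34 in Perk KO neurons), its relative Adamtsl3 (2.38, with 1.56 in WT and -0.78 in Perk KO neurons), the splicing factor Srsf3 (2.16, with 1.24 in WT and -0.89 in Perk KO neurons) and Plek, a protein of blood cells and microglia (2.15, with 1.34 in WT and -0.78 in Perk KO neurons). The largest below Perk KO were those of the growth factor binding protein Igfbp5 (-3.38, with -2.79 in WT and 0.61 in Perk KO neurons), the lysine-degrading enzyme Aass (-3.24, with -2.50 in WT and 0.77 in Perk KO neurons), the matrix protein Vwa1 (-3.23, with -2.67 in WT and 0.59 in Perk KO neurons) and the sphingosine phosphate receptor S1pr3 (-2.97, with -1.89 in WT and 1.11 in Perk KO neurons).

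Other genes moved in opposite directions in WT neurons and WT astrocytes with the interaction called, and the largest were taken under the same limits. Above astrocytes these were the linker histones Hist1h1d (6.23, with 4.84 in neurons and -1.57 in astrocytes) and Hist1h1c (2.87, with 2.57 in neurons and -0.47 in astrocytes), the signalling factor Smad9 (3.34, with 0.82 in neurons and -2.69 in astrocytes) and the stress gene Ndrg1 (2.98, with 2.53 in neurons and -0.62 in astrocytes). Below astrocytes these were the neuronal tubulin Tubb3 (-3.53, with -1.38 in neurons and 1.97 in astrocytes), the scaffold Grasp (-3.66, with -1.70 in neurons and 1.78 in astrocytes), Mlip (-3.42, with -0.48 in neurons and 2.77 in astrocytes) and the synaptic scaffold Lin7a (-3.07, with a fall in neurons and 1.90 in astrocytes). The change of Mlip in neurons lost its call without TM replicate 1 (-0.37, adjusted p = 0.0664). Levels of these genes in astrocyte cultures are not given here, and only a mean of 10 counts or more was required there. Changes of neuronal genes in astrocyte cultures may therefore rest on low counts.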

How the results depend on the processing

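With 3 libraries a group, the numbers of genes moved with the libraries used: 3421 to 4404 rose and 3153 to 4315 fell in WT neurons when 1 library was left out, and DESeq2 gave 3930 and 3993. The responses above and below Perk KO numbered 1871 to 3052 and 1728 to 2669 in the same leave-outs. Those above and below astrocytes numbered 1537 to 2259 and 1219 to 2191, the lowest without control replicate 1 of the astrocytes. With no filter on low counts 1111 genes lay below astrocytes, and the median of all differences in that fit was 0.12 against -0.02; the cause was not tested. Of 505 named genes called, 45 lost the call when 1 library was left out, 8 under DESeq2, 4 with its size factors, 12 with no filter and 6 under the GC correction, and in all these settings none turned its direction. Whether replicate numbers pair the libraries is not settled. As deviations from their group means, same-numbered TM and control libraries correlated at 0.176, -0.218 and -0.188. Not every library correlated best with its own number, but deviations within 3 libraries cannot decide the question. In both groups Ttr was highest and Col1a1 lowest in replicate 1. Ttr had 629, 122 and 32 counts with TM and 946, 152 and 114 counts in controls. Both genes were picked after their values were seen. With the replicate block 3790 genes rose and 3522 fell, 2069 and 2059 lay above and below Perk KO and 2462 and 2339 above and below astrocytes, and 20 named genes lost the call. Genes of few counts (Casp12, Aurkb, Tdrd9 and the genes read in 1 group) are limited by depth.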

Other observations

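Several long noncoding RNAs changed as much as the ER chaperones. 2410006H16Rik stood at 475, 440 and 441 CPM in TM-treated and at 51.4, 40.4 and 32.9 CPM in control neurons (3.44 ± 0.16, edgeR). 4732496C06Rik stood at 18.5, 21.7 and 17 CPM with TM and at 0.452, 1.03 and 1.88 CPM in controls (4.12 ± 0.36). Dlx6os1, which is transcribed from the locus of the interneuron factors Dlx5 and Dlx6, fell to 6.58, 5.39 and 8.6 CPM with TM, against 33, 21.3 and 46.7 CPM in controls. Its neighbour Dlx6 rose (0.60), and the kit does not tell the strands apart. Pseudogenes were called higher in 22.1% and lower in 10.3% of 701 cases.

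Mog, a myelin protein, moved against the other markers of its lineage, with 4.33, 4.8 and 4.33 CPM in TM-treated and 0.954, 0.443 and 0.69 CPM in control neurons (2.68 ± 0.29, edgeR adjusted p = 0.000109). Other markers of glia fell, such as the astrocyte water channel Aqp4, with 13.1, 13.6 and 7.96 CPM with TM and 76.2, 58.2 and 118 CPM in controls, and the transcription factor Olig1, which fell by 2.17 on the log2 scale. Tes, a focal adhesion protein, stood at 95.9, 93.8 and 92.6 CPM with TM and at 3.97, 4.23 and 4.58 CPM in controls (4.47 ± 0.11, edgeR adjusted p = 5.26e-08), with a response above that of Perk KO neurons by 3.99.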
